A study of Homo sapiens with 16 samples.

Results

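The 9 genes described here encode receptors and membrane proteins by which macrophages bind modified lipoproteins, haemoglobin complexes, microbes and dying cells. They are CD36, SCARB1, MSR1, MARCO, CD163, STAB1, OLR1, CD68 and MERTK, chosen by symbol as 9 of the 60603 genes in the deposited count table. RNA was measured in 16 libraries of SKNO-1 and U-937, established lines of human acute myeloid leukaemia. The first is known for its RUNX1-RUNX1T1 fusion and the second for its monocytic features. Both were treated for 24 h with DMSO (solvent), with 0.1 µM ATRA (all-trans retinoic acid), with 0.1 µM Corin, or with the 2 agents together at those doses, which gives 8 groups of 2 libraries. The description of the DMSO samples also carries the figure of 0.1 µM, and they were read as the solvent control from their titles and treatment label, a reading on which every comparison with DMSO rests. Corin is a compound that joins inhibition of the demethylase LSD1 with inhibition of class I histone deacetylases in the CoREST complex. All SKNO-1 groups, the DMSO group included, grew with GM-CSF at 10 ng/mL and the U-937 groups did not, so line and medium cannot be told apart.

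Scavenger receptors are a functional class with several unrelated folds that share the ability to bind polyanionic or lipid ligands. Class A members (MSR1, MARCO) take up modified lipoproteins and bacteria, class B members (CD36, SCARB1) move fatty acids and cholesterol as well as binding particles, and CD163 clears haemoglobin bound to haptoglobin. Efferocytosis is the engulfment of apoptotic cells, for which the receptor tyrosine kinase MERTK recognises phosphatidylserine through the bridging proteins GAS6 and PROS1. Many of these genes are low in progenitor-like myeloid cells and rise as monocytes become macrophages.

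The library totals ran from 28.4 to 37.8 M estimated counts. Levels are given as CPM (counts scaled to depth) on totals adjusted by TMM, a method that aligns libraries on the bulk of their genes, and levels are set against each other between genes only as the authors' TPM, which accounts for length. A gene was called changed at an adjusted p under 0.05 in the quasi-likelihood test of edgeR, adjusted by Benjamini-Hochberg over every gene tested. Nothing in the labels says that the 2 libraries of a group came from separate cultures, so the p-values measure only the spread between these libraries. The 2 SKNO-1 DMSO libraries stood apart from each other: the log2 difference between them had an SD of 0.361 across genes, against 0.109 to 0.196 in the other 7 groups, and it followed GC content across genes (r = 0.81 over 9330 genes). As a check of the labels, the summed TPM of RARB, DHRS3 and CYP26A1 went from at most 0.01 to 6.43 in SKNO-1 and from 1.48 to 1.9 up to 52.0 to 53.45 in U-937. The 12 monocyte or macrophage markers summed to 182 to 249 TPM in SKNO-1 with DMSO, 161 to 174 with ATRA, 437 to 466 with Corin and 380 to 407 with both agents, and CD14 and FCN1 were among those at 0 in the DMSO libraries of that line. In U-937 the same markers summed to 418 to 480, 512 to 578, 1964 to 2058 and 2044 to 2082 TPM. The 8 granulocyte markers summed to 935.3 to 936.6 TPM in SKNO-1 with DMSO, 1114 to 1144 with ATRA, 561 to 597 with Corin and 608 to 710 with both agents, and to 152 to 203, 358 to 365, 162 to 163 and 127 to 158 TPM in U-937. The 5 megakaryocyte or erythroid markers went from 6.37 to 7.29 TPM with DMSO to 21.6 to 21.9 with Corin in SKNO-1, with GP9 and PF4 among those at 0 in both groups. The part of these markers in the receptor results was not tested, and in bulk RNA fewer cells of a type and less RNA per cell cannot be told apart.

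The 250 bases before the RefSeq start are shown for 4 members, because, among the members with an entry, these rose most (CD36, CD163) or rose in both lines (CD68, MERTK). They are from the RefSeq promoter table (GRCh38.p14), which held 11 such windows for 6 of the 9 members, 6 of them for CD36, of which the one farthest upstream is shown. Capitals mark matches, on either strand, to a PU.1-type core (GAGGAA), a C/EBP-type motif (TTNNGNAA) or an AP-1-type motif (TGANTCA), where PU.1, C/EBP and AP-1 are factors of myeloid genes. CD36 lies on the plus strand of chromosome 7, CD163 on the minus strand of chromosome 12, and CD68 and MERTK on the plus strands of chromosomes 17 and 2.
CD36 chr7:80601957-80602206: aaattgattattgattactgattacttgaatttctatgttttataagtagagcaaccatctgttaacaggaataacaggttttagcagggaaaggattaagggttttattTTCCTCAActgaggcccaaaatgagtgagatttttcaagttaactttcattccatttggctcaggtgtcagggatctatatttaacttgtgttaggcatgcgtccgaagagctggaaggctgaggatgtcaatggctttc
CD163 chr12:7503778-7504027: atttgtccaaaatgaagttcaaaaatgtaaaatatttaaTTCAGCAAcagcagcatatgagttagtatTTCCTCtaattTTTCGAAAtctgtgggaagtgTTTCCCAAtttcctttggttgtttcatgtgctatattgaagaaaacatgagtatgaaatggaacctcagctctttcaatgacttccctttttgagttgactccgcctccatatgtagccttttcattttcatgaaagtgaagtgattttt
CD68 chr17:7579388-7579637: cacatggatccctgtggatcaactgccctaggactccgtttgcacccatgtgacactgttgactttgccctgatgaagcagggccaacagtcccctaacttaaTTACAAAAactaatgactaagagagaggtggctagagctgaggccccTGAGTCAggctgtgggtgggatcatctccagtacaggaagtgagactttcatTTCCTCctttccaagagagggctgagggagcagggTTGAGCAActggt
MERTK chr2:111898357-111898606: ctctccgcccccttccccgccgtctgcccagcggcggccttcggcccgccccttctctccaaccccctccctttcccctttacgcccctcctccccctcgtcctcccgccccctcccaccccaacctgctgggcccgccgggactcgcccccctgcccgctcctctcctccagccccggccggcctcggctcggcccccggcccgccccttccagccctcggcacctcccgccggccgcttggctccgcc
The CD163 window had 5 matches, of which 2 are 1 stretch read on both strands, and the CD68 window had 4. In the CD36 window the PU.1-type and C/EBP-type matches overlapped and together span 8 bases. The MERTK window, at 78.8% GC, had no match, and the CD163 window had the lowest GC content of these 4 at 33.6%. Over all 35116 windows of this length in the table, 23.6% held the PU.1-type core, 33.2% the C/EBP-type motif and 6.6% the AP-1-type motif. Direct repeats of a retinoid half-site (NGNTCA) with a spacer of 1, 2 or 5 bases stood in 0.6%, 0.5% and 0.6% of them and in none of the 11 member windows. A match is a description of these letters and not a bound site. OLR1, SCARB1 and MSR1 had no entry.

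Without treatment the lines differed in which receptors they expressed. Of the summed TPM of the 9 genes in SKNO-1 with DMSO, 77.4% ± 0.198 (SD, n = 2) was SCARB1, 14.0% ± 2.15 CD68 and 8.41% ± 1.81 MERTK, and the other 6 genes together made up the small rest. In U-937 with DMSO, CD68 took 34.7% ± 1.51, SCARB1 31.3% ± 2.66, CD36 17.4% ± 3.57, MERTK 11.5% ± 0.107 and MARCO 5.02% ± 0.526 (SD, n = 2). SKNO-1 summed to 28.65 ± 2.84 TPM over the 9 genes and U-937 to 74.8 ± 4.70 TPM (SD, n = 2). Tested on the DMSO libraries of both lines, 6 of the 8 members tested differed, where 64.8% of all genes did: CD36, MARCO, CD68 and MERTK were higher in U-937, and SCARB1 and STAB1 higher in SKNO-1. That share of members is near the share of all genes. CD36, MARCO and OLR1 passed the low-count filter of this fit only through U-937 libraries and STAB1 only through SKNO-1 libraries, so the calls of CD36, MARCO and STAB1 follow in part from how they entered the test, and the count supports nothing about the members. The SCARB1 difference (-0.43, SE 0.107, adjusted p = 0.00162) became -0.25 (adjusted p = 0.0912) with library totals only, and STAB1, at 7 against 0 counts, lost its call without SKNO-1 DMSO replicate 1 (adjusted p = 0.0578), U-937 DMSO replicate 1 (0.0806) or U-937 DMSO replicate 2 (0.0707).

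**Figure D1:**
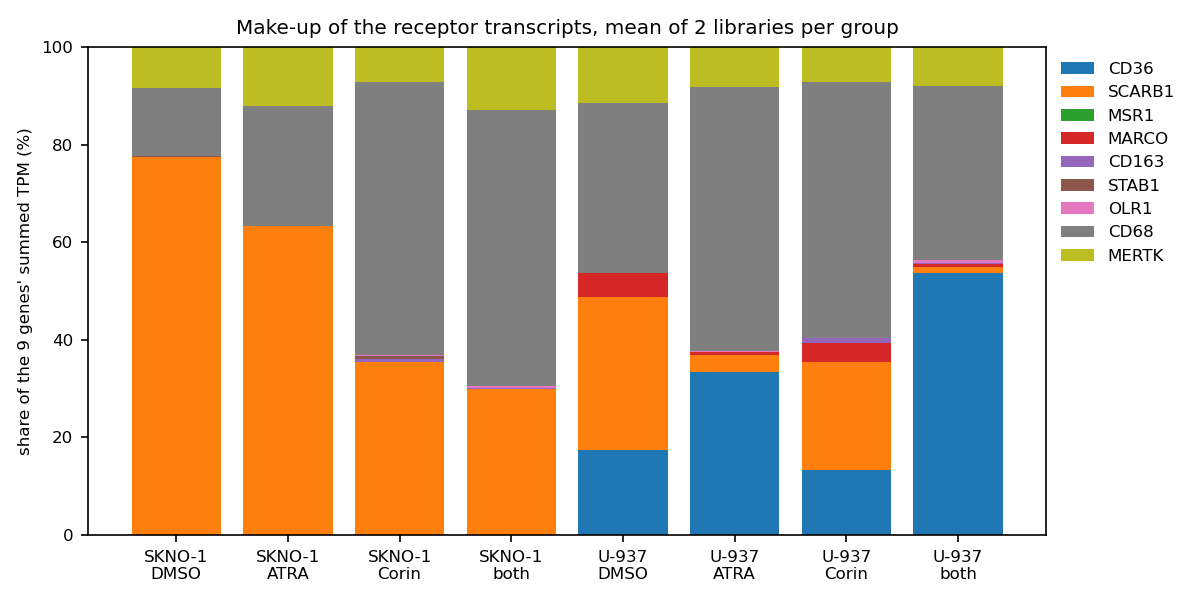
Share of the summed TPM of the 9 receptor genes (y axis, percent, mean of 2 libraries) taken by each gene in the 8 groups (x axis). SCARB1 fills 77.4% of the SKNO-1 DMSO bar, and CD36 fills 53.7% of the U-937 bar for both agents.

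CD36, the fatty acid and oxidised lipoprotein receptor of class B, was present in U-937 and not in SKNO-1. The gene is annotated at chr7:80369575-80679277 (GRCh38, GENCODE 44), plus strand, with 24 transcripts. In U-937 the DMSO libraries held 25.5 and 32.3 CPM, the ATRA libraries 273 and 303, the Corin libraries 38.6 and 37.5, and the libraries with both agents 764 and 892. None of these 4 groups overlapped, and the order was both agents, ATRA, Corin, DMSO. ATRA raised CD36 by 3.32 on the log2 scale (SE 0.128, 9.96-fold, adjusted p = 8.12e-16), and both agents together by 4.85 (SE 0.136, 28.8-fold, adjusted p = 5.86e-19). Adding Corin to ATRA gave a further 1.53 (SE 0.116, adjusted p = 1.09e-10). Corin alone gave a rise of 0.40 (SE 0.122, adjusted p = 0.0302), a call that was lost when U-937 DMSO replicate 1 (adjusted p = 0.382), Corin replicate 1 (0.122) or Corin replicate 2 (0.0692) was left out, over a range of 0.23 to 0.42 for these 3 fits. In SKNO-1 the only CD36 reads were 2 counts in DMSO replicate 1, and the other 7 libraries of the line were at 0, so the gene was not tested there.

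SCARB1, the class B receptor that takes cholesteryl ester from HDL, was the member with called falls against DMSO. It lies at chr12:124776856-124882668 on the minus strand. In U-937 it stood at 58.6 and 52.8 CPM with DMSO, 36.5 and 33.0 with ATRA, 54.5 and 59.9 with Corin, and 26.6 and 21.1 with both agents. The DMSO and Corin ranges overlapped, and the ATRA and both-agent groups lay below them without overlap. SCARB1 fell by 0.68 on the log2 scale with ATRA (SE 0.115, adjusted p = 3.83e-05) and by 1.21 with both agents (SE 0.117, adjusted p = 2.95e-09), and Corin gave 0.04 (SE 0.113, adjusted p = 0.866). In SKNO-1 the levels were 79.5 and 70.8 CPM with DMSO, 75.5 and 80.5 with ATRA, 51.7 and 53.9 with Corin, and 64.8 and 66.8 with both agents. There it was Corin that lowered it, by 0.51 on the log2 scale (SE 0.0833, adjusted p = 0.00232), while ATRA gave 0.09 (SE 0.0825, adjusted p = 0.664). With both agents in SKNO-1 the value was -0.14 (SE 0.0828, adjusted p = 0.196), and it became -0.31 (adjusted p = 0.000784) with the GC trend of each library removed and -0.25 (adjusted p = 0.00106) without SKNO-1 DMSO replicate 2.

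The class A receptors were low or absent. MARCO, at chr2:118942194-118994660 on the plus strand, had 0 counts in all 8 SKNO-1 libraries. In U-937 it had 3.87 and 2.98 CPM with DMSO, 2.37 and 2.76 with ATRA, 4.95 and 3.74 with Corin, and 4.23 and 3.998 with both agents. No change against DMSO passed the test in U-937, with values of -0.42 (SE 0.230) for ATRA, 0.35 (SE 0.222) for Corin and 0.27 (SE 0.224) for both. The level with both agents was above that with ATRA alone by 0.69 (SE 0.227, adjusted p = 0.0144), a call lost without U-937 ATRA replicate 1 (0.58, adjusted p = 0.124) or without both-agent replicate 1 (0.66, adjusted p = 0.0517). MSR1, on the minus strand of chromosome 8, was listed at 0 in all U-937 libraries and in 6 of the 8 SKNO-1 libraries, the largest estimated count being 1.56. It was tested in neither line.

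CD163, the haemoglobin-haptoglobin receptor at chr12:7470811-7503893 on the minus strand, rose with Corin in both lines. In U-937 the estimated counts were 0 and 0 with DMSO, 0 and 2 with ATRA, 145 and 103 with Corin, and 84 and 86 with both agents. Against a floor of 3 counts over the DMSO group, the rise was at least 74.3-fold with Corin (adjusted p = 1.67e-09) and at least 55.1-fold with both agents (adjusted p = 3.43e-10). The level with both agents differed from that with Corin alone by -0.41 on the log2 scale (SE 0.288, adjusted p = 0.224), so a difference did not pass the test. In SKNO-1 the counts were 1 and 1 with DMSO, 0 and 0 with ATRA, 35 and 15 with Corin, and 4 and 6 with both agents. The Corin to DMSO ratio there was 26.2 (95% exact interval 6.88 to 222, counting error only; adjusted p = 0.00385). With both agents the ratio was 5.35 (interval 1.14 to 50.2), and the test against DMSO gave an adjusted p of 0.0908. Against Corin alone the both-agent value was -2.21 (SE 0.587, adjusted p = 0.0578), which moved below the threshold under 5 alternatives, among them GC trend removed (-2.09, adjusted p = 0.0330). CD163 overlaps CD163L1 on the same strand, and CD163L1 had 7.45 to 16.4 CPM in every U-937 library, including those where CD163 was at 0.

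STAB1 was scarce in both lines, and OLR1 was scarce in every group but U-937 with both agents. STAB1 (stabilin-1, a receptor for acetylated LDL and for phosphatidylserine, at chr3:52495338-52524495 on the plus strand) had 4 and 3 counts in SKNO-1 with DMSO, 0 and 0 with ATRA, 17 and 24 with Corin, and 6 and 7 with both agents. Corin raised it by 2.58 on the log2 scale (SE 0.517, adjusted p = 0.00751), a call lost without SKNO-1 Corin replicate 2 (2.28, adjusted p = 0.0712). Both agents gave 1.01 against DMSO (SE 0.611, adjusted p = 0.208). In U-937 it had at most 6 counts in a library and was not tested. It overlaps NT5DC2 on the other strand, and since the use of strand in counting is not stated, its few reads are uncertain.

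OLR1, which encodes the oxidised LDL receptor LOX-1 (chr12:10158301-10172138, minus strand), had 1 and 1 counts in U-937 with DMSO, 10 and 7 with ATRA, 1 and 4 with Corin, and 218 and 247 with both agents. The ratio of both agents to DMSO was 226 (95% exact interval 62.2 to 1871, counting error only; adjusted p = 1.47e-12), and that of ATRA to DMSO was 7.55 (interval 1.79 to 67.4; adjusted p = 0.00553). Both agents exceeded ATRA alone by 4.90 on the log2 scale (SE 0.355, adjusted p = 4.24e-11) and Corin alone by 6.59 (SE 0.429, adjusted p = 3.02e-12). OLR1 passed the low-count filter in U-937 only through the both-agent libraries. Its calls for that group therefore follow in part from how it entered the test. In SKNO-1 it was too low to be tested, at 0 and 1, 1 and 0, 7 and 3, and 7 and 13 counts in the same order of groups. OLR1 overlaps TMEM52B on the other strand, whose level in U-937 was 2.56, 14.1, 10.1 and 34.6 CPM (means of DMSO, ATRA, Corin and both), and a part of those reads in the OLR1 count was not tested.

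CD68, a lysosomal and endosomal glycoprotein used as a macrophage marker, rose with every treatment in both lines. It lies at chr17:7579491-7582111 on the plus strand. In SKNO-1 the libraries held 6.90 and 5.10 CPM with DMSO, 14.8 and 14.3 with ATRA, 37.2 and 33.4 with Corin, and 57.3 and 57.2 with both agents, with no overlap between groups. The rises against DMSO were 1.31 (SE 0.148, adjusted p = 0.00142), 2.56 (SE 0.147, adjusted p = 1.88e-05) and 3.30 (SE 0.149, adjusted p = 3.69e-06) on the log2 scale. In U-937 the libraries held 34.4 and 32.3 CPM with DMSO, 257 and 272 with ATRA, 83.7 and 73.0 with Corin, and 293 and 313 with both agents. The ATRA rise was not called when only the SKNO-1 ATRA and DMSO libraries were fitted (1.30, adjusted p = 0.0610). The order of the single agents was reversed between the lines, Corin above ATRA in SKNO-1 and ATRA above Corin in U-937. The U-937 rises were 2.99 (SE 0.108, adjusted p = 3.21e-16) with ATRA, 1.24 (SE 0.104, adjusted p = 5.19e-09) with Corin and 3.19 (SE 0.109, adjusted p = 2.06e-17) with both. Both agents against ATRA alone gave 0.20 (SE 0.0986, adjusted p = 0.0930) in U-937, and 0.41 (adjusted p = 0.00495) with the GC trend removed. CD68 shares sequence with an overlapping lncRNA on the same strand (10.5 to 14.6 CPM as group means), so its estimated counts are a division of reads by a model.

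MERTK rose with ATRA in both lines, and rose further with Corin added. It lies at chr2:111898607-112029561 on the plus strand. In SKNO-1 the libraries held 9.24 and 8.79 CPM with DMSO, 17.4 and 16.2 with ATRA, 12.2 and 11.3 with Corin, and 31.9 and 34.0 with both agents. In U-937 they held 24.9 and 27.6, 95.9 and 91.9, 23.6 and 24.8, and 166 and 182 CPM. In both lines the both-agent libraries were above all others of the line. ATRA raised MERTK by 0.94 in SKNO-1 (SE 0.102, adjusted p = 0.00124) and by 1.84 in U-937 (SE 0.102, adjusted p = 7.36e-13), and both agents by 1.92 (SE 0.102, adjusted p = 8.28e-06) and 2.74 (SE 0.105, adjusted p = 1.41e-16). Corin added to ATRA gave a further 0.98 in SKNO-1 (SE 0.0985, adjusted p = 0.000176) and 0.90 in U-937 (SE 0.0969, adjusted p = 4.30e-08). The ATRA rise in SKNO-1 was not called when only the ATRA and DMSO libraries were fitted (0.92, adjusted p = 0.0554). Corin alone gave 0.38 in SKNO-1 (SE 0.103, adjusted p = 0.0205), lost without Corin replicate 1 (0.32, adjusted p = 0.133) or Corin replicate 2 (0.44, adjusted p = 0.0605), and -0.11 in U-937 (SE 0.104, adjusted p = 0.538).

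**Figure D2:**
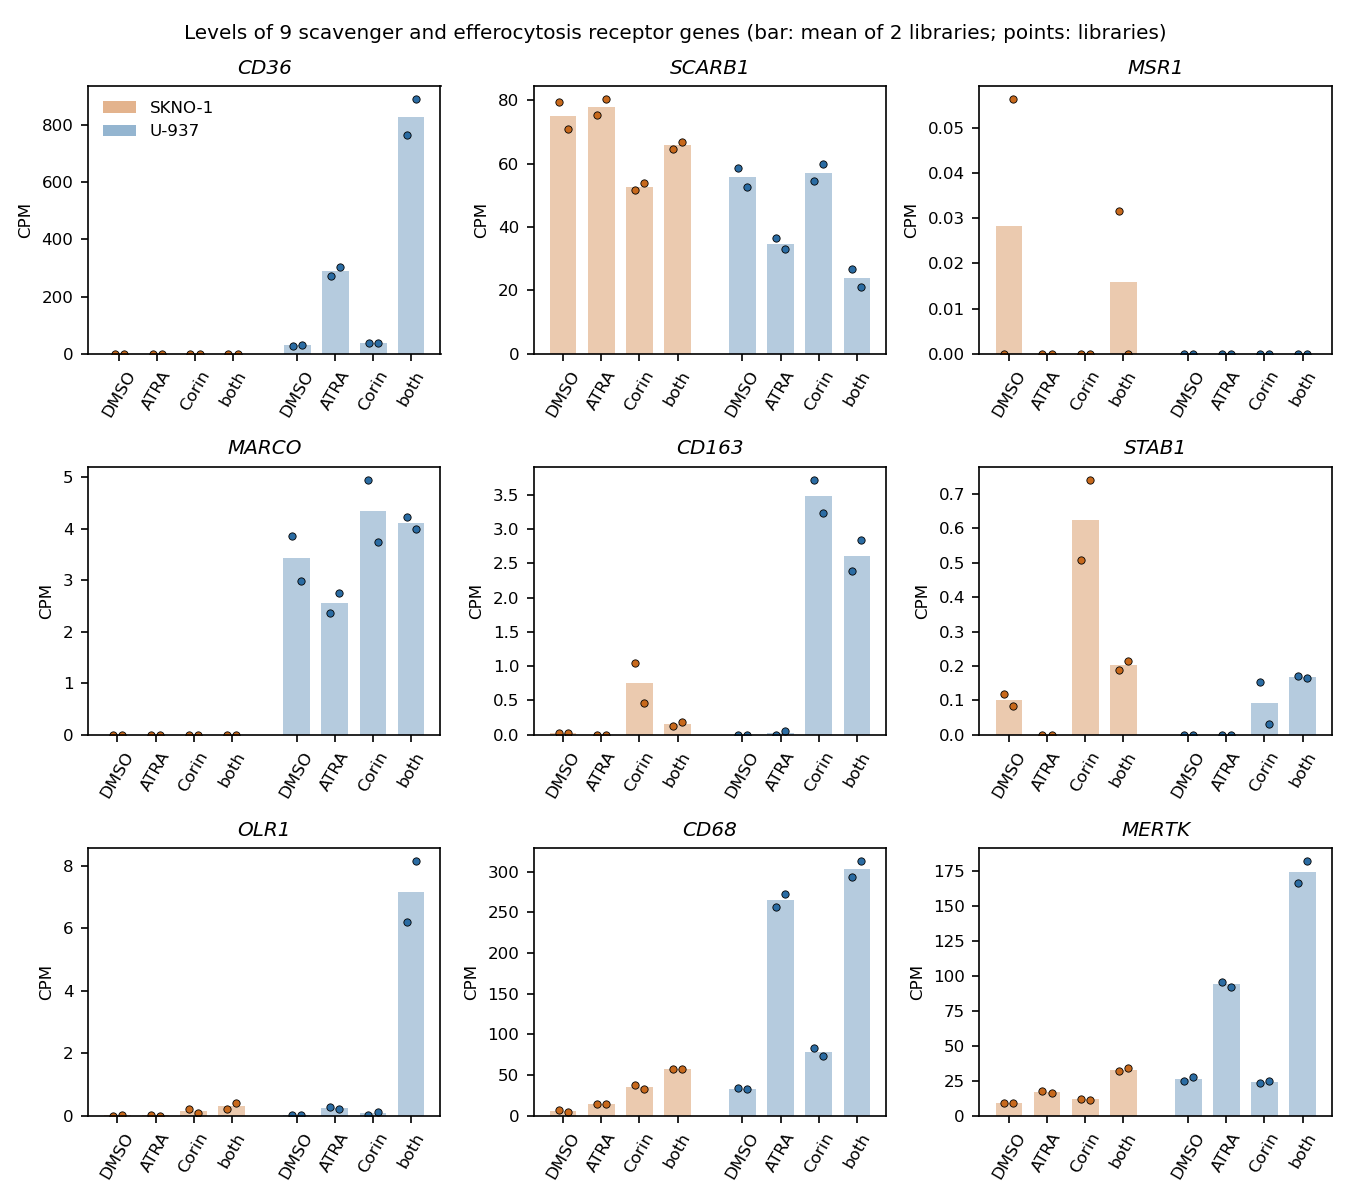
CPM on TMM-scaled totals (y axis, a scale of its own in each panel, from 0) of the 9 receptor genes by treatment (x axis) in SKNO-1 and U-937. Bars are means of 2 libraries and points the libraries. CD36 reaches 764 and 892 CPM in U-937 with both agents and is at or near 0 in SKNO-1.

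Counted over the members, 2 of the 5 tested in SKNO-1 were called with ATRA (both higher), where 6.76% of all genes were called. With Corin 5 of 5 were called, SCARB1 as the lower one (37.9% of all genes), and with both agents 2 of 5, both higher (46.7%). In U-937, of the 7 tested, 5 were called with ATRA (41.8% of all genes) and 6 with both agents (65.3%), SCARB1 being the lower one each time, and 3 with Corin, all higher (12.9%). CD163 and STAB1 in SKNO-1, and CD163 and OLR1 in U-937, passed the low-count filter only through treated groups where they were high. Their calls against DMSO therefore follow in part from how they entered the test, though not every comparison called them. As 4 members in SKNO-1 and 2 in U-937 were not tested, these counts do not describe all 9 genes. The median log2 change of the tested members with both agents came to 1.92 for SKNO-1 and 3.19 for U-937, beside 0.05 and 0.03 for all genes tested. These medians include the members that entered through treated groups, so they too are in part set by the filter. The comparisons with DMSO in a line share the same 2 DMSO libraries.

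**Figure D3:**
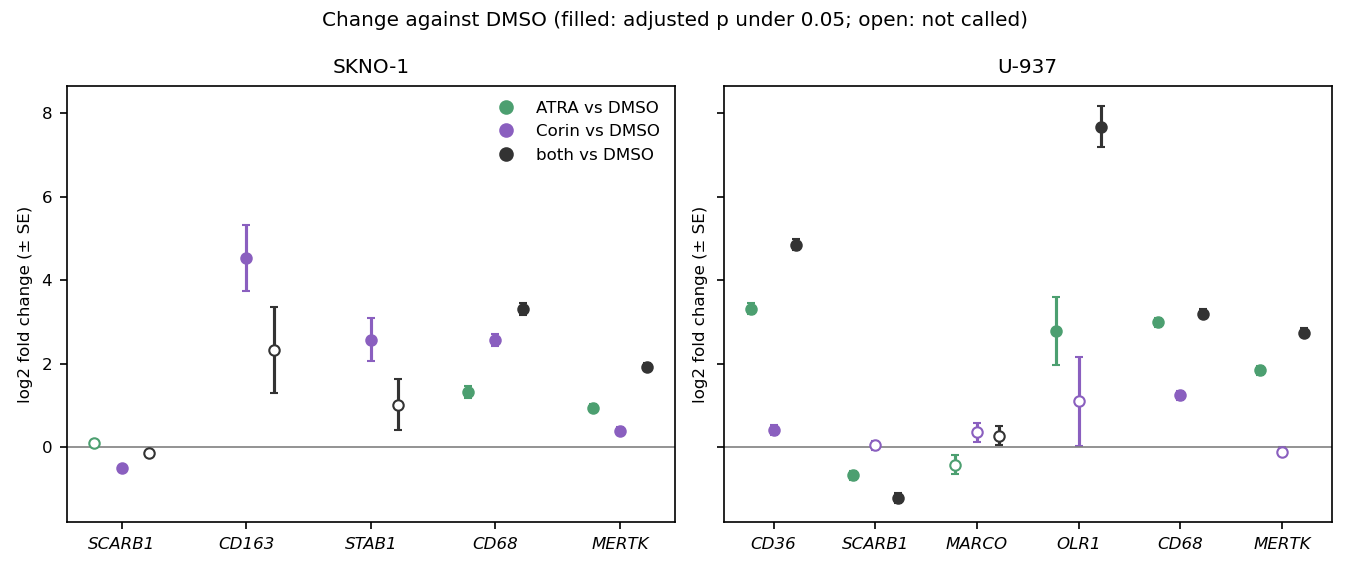
Log2 fold change against DMSO (y axis, with SE) of the members for which an SE could be computed (x axis), by treatment and line. Filled points passed the test and open points did not. CD163 in U-937 is not drawn because its DMSO libraries held 0 counts. Also not drawn are CD163 (-3.11) and STAB1 (-4.80) with ATRA in SKNO-1, where the ATRA libraries held 0 counts. Neither of these was called. SCARB1 is the gene with called changes below 0.

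Whether the combined effect equals both single effects added together on the log2 scale was also tested, as a contrast in the same fit. Equality on that scale means that the fold changes of the single agents multiply. Whether the CPM levels themselves add up was not tested, and a gene can depart on 1 scale and not on the other. In U-937, 4 of the 7 tested members departed from the sum, where 23.4% of all genes did. CD36 rose by 4.85 where the single effects sum to 3.72, a departure of 1.13 (SE 0.167, adjusted p = 1.63e-05), and MERTK rose by 2.74 against a sum of 1.72, a departure of 1.01 (SE 0.142, adjusted p = 7.17e-06). CD68 fell short of its sum of 4.22 by 1.03 (departure -1.03, SE 0.143, adjusted p = 6.26e-06). SCARB1 departed by -0.57 (SE 0.163, adjusted p = 0.0115), which became -0.26 (adjusted p = 0.205) with the GC trend removed and was lost without U-937 DMSO replicate 2 (-0.51, adjusted p = 0.0638), ATRA replicate 1 (-0.50, adjusted p = 0.0656) or both-agent replicate 2 (-0.41, adjusted p = 0.0762). OLR1 gave 3.81 (SE 1.41, adjusted p = 0.0610), which was called by DESeq2 (3.78, adjusted p = 0.0296; 5 members in all) and without U-937 Corin replicate 2 (5.16, adjusted p = 0.0266). In SKNO-1, 0 of the 5 tested members departed in edgeR's test, where 0.463% of all genes did, with 3 at an unadjusted p under 0.05 and 0 by DESeq2. MERTK there gave 0.60 (SE 0.142, adjusted p = 0.151) and CD68 -0.57 (SE 0.197, adjusted p = 0.283). Without SKNO-1 DMSO replicate 1 these became 0.59 (adjusted p = 0.0102) and -0.77 (adjusted p = 0.000641), and without DMSO replicate 2 MERTK gave 0.71 (adjusted p = 0.000419) and SCARB1 0.43 (adjusted p = 0.000213).

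**Figure D4:**
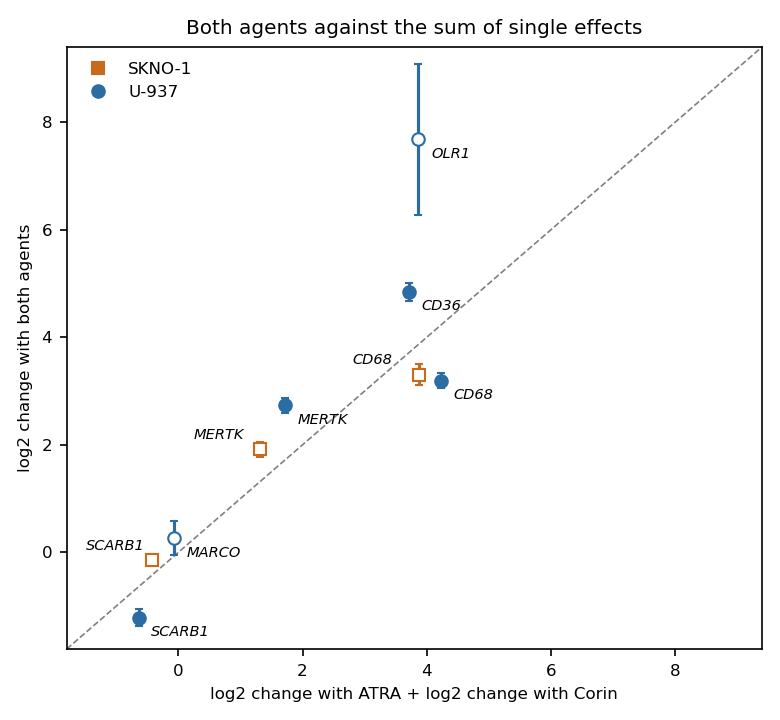
Log2 change with both agents (y axis) against the sum of the log2 changes with ATRA and with Corin (x axis) for members with an SE, where the dashed line marks equality and bars are the SE of the departure. Filled points departed at an adjusted p under 0.05. CD36 and MERTK of U-937 lie above the line and CD68 and SCARB1 of U-937 below it.

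Adding an agent to the other gave a further set of values. In SKNO-1, both agents against ATRA called 4 of the 5 tested members (44.8% of all genes): CD68 at 1.99 (SE 0.138), MERTK at 0.98 (SE 0.0985), STAB1 with at least a 4.62-fold rise (adjusted p = 0.00605) and CD163 with at least a 3.55-fold rise (adjusted p = 0.0230). The CD163 call rests on 0 against 10 counts and was lost without ATRA replicate 1 (adjusted p = 0.0723), ATRA replicate 2 (0.0786), both-agent replicate 1 (0.0536) or both-agent replicate 2 (0.0858). Both agents against Corin in SKNO-1 called 3 of 5 (10.4% of all genes). MERTK was higher by 1.53 (SE 0.101, adjusted p = 0.000103) and kept its call without each library. CD68 at 0.74 (SE 0.132, adjusted p = 0.0123) and SCARB1 at 0.37 (SE 0.0834, adjusted p = 0.0323) lost theirs without any 1 of the 4 libraries compared, at adjusted p of 0.0947 to 0.133 and 0.153 to 0.245, and SCARB1 gave 0.13 (adjusted p = 0.196) with the GC trend removed. In U-937 the both-agent group was called against ATRA for 6 of 7 members (47.4% of all genes) and against Corin for 5 of 7 (60.5%). SCARB1 was the lower one each time. OLR1 passed the low-count filter only through the both-agent libraries, and CD163 only through the Corin and both-agent groups. The OLR1 calls in both counts, and the CD163 call against ATRA, therefore follow in part from how they entered the test.

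The difference between the lines was tested for each response. For ATRA, 3 of the 8 members tested differed (19.4% of all genes): the rise of CD68 was larger in U-937 by 1.71 (SE 0.164, adjusted p = 4.78e-07) and that of MERTK by 0.94 (SE 0.137, adjusted p = 5.92e-05), and SCARB1 differed by -0.73 (SE 0.152, adjusted p = 0.00167). CD36, with 2 counts over all SKNO-1 libraries, was not called (6.46, adjusted p = 0.0626). It was called under 8 of the 16 alternatives run, among them DESeq2 (0.00912, which called 4 members) and no low-count filter (0.0206), and not under the other 8. Its value ran from 3.29 to 7.38 over the alternatives, and the 2 counts were both in SKNO-1 DMSO replicate 1. For Corin, 3 of 8 differed (12.8%), with CD68 at -1.33 (SE 0.161, adjusted p = 1.38e-05), meaning a larger rise in SKNO-1. For both agents, 4 of 8 differed (40.6%): SCARB1, MERTK, CD36 and CD163, of which CD36 entered the fit only through U-937 libraries and CD163 through the Corin and both-agent groups, while CD68 gave -0.07 (SE 0.159, adjusted p = 0.802). The order of the groups over both lines was the same at the top for CD36, CD68, MERTK and OLR1, each highest in U-937 with both agents, while CD163 was highest in U-937 with Corin and STAB1 in SKNO-1 with Corin. Among neighbours in that order, CD68 in SKNO-1 with Corin and in U-937 with DMSO had overlapping ranges.

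The protein-coding genes whose levels followed each member most closely over the 16 libraries, after centring each line on its mean, were taken from 10116 candidates. For CD36 they were MGAT1 (r = 0.99) and HCLS1, for CD68 SNN (r = 0.99) and DDIT4, for MERTK CHST15 (r = 0.99) and TGFA, and for SCARB1 EIF4G1 (r = 0.98) and TBC1D24. OLR1 was nearest to PICALM (r = 0.97) and YPEL2, CD163 to KCTD6 (r = 0.97) and HLA-DRB1, STAB1 to TNFSF10 (r = 0.96), and MARCO to PRAME (r = 0.88) and ART3. Among the members, MERTK went with OLR1 (r = 0.84), CD68 (r = 0.83) and CD36 (r = 0.82), CD163 with STAB1 (r = 0.80), and SCARB1 against OLR1 (r = -0.87) and CD36 (r = -0.86). These are descriptions over libraries that share treatments and line, and in SKNO-1 several of the members are near 0.

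Genes that work beside these receptors were read from 7 lists. With both agents, 46.7% of all genes tested were called in SKNO-1 and 65.3% in U-937, in either direction. A count near these shares says nothing particular about a list. Of the 15 other scavenger receptors, 9 were tested in each line, and with both agents 8 rose and 0 fell in SKNO-1 and 7 rose and 0 fell in U-937. The list medians were 1.79 and 2.19, beside 0.05 and 0.03 for all genes tested, and they are in part set by the low-count filter. In each line 4 of the 9 were below the low-count filter in the DMSO libraries, so they entered the test through treated groups and could hardly fall: CLEC7A, COLEC12, LRP1 and SCARF2 in SKNO-1, and CLEC7A, LRP1, SCARF1 and SCARF2 in U-937. With DMSO, LRP1 summed to 6 counts in SKNO-1 and 9 in U-937, and CLEC7A to 5 in U-937. LRP1, an endocytic receptor that also binds calreticulin, rose by 8.03 in SKNO-1 (SE 0.328, adjusted p = 2.05e-06) and 5.01 in U-937 (SE 0.425, adjusted p = 2.62e-10). The mannose receptor MRC1 rose by 1.36 in SKNO-1 (SE 0.162), and CLEC7A, the beta-glucan receptor, by 7.03 in U-937 (SE 0.384). Of the other efferocytosis receptors and bridging proteins, 6 of 12 tested rose and 1 fell in SKNO-1, and 9 of 14 rose and 2 fell in U-937. THBS1, a bridging ligand of CD36 and integrins, rose by 5.27 in SKNO-1 (SE 0.0885) and 4.41 in U-937 (SE 0.189). The phosphatidylserine and lipid receptor CD300LF rose by 1.96 in SKNO-1 (SE 0.0946) and 1.86 in U-937 (SE 0.110). ANXA1 rose by 0.87 in SKNO-1 (SE 0.0738) and 4.43 in U-937 (SE 0.137). TYRO3, a relative of MERTK in the TAM family, fell by 2.65 in U-937 (SE 0.111, adjusted p = 7.94e-16), and CALR, the calreticulin gene, fell by 0.99 in SKNO-1 (SE 0.0771) and 0.59 in U-937 (SE 0.123).

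The engulfment machinery had 4 rises and 3 falls among 13 tested genes in SKNO-1, and 10 rises and 2 falls among 13 in U-937. Of all genes, 46.7% and 65.3% were called in the 2 lines. ABCA7, a lipid transporter tied to phagocytosis, rose by 2.39 in SKNO-1 (SE 0.318) and 2.63 in U-937 (SE 0.202), and the myosin gene MYO1G by 1.06 (SE 0.145) and 1.61 (SE 0.108). RAC1 and the adaptor gene CRKL fell by 0.47 (SE 0.0683) and 0.41 (SE 0.0588) in SKNO-1, and ELMO1 and CRKL by 0.63 (SE 0.101) and 0.56 (SE 0.0953) in U-937. Of 17 tested genes of lipid handling, 12 rose and 2 fell in SKNO-1 and 13 rose and 1 fell in U-937. Of the 17, 2 in SKNO-1 and 3 in U-937 were below the low-count filter with DMSO. They entered the test through treated groups and could hardly fall. The cholesterol exporter ABCA1 rose by 4.19 in SKNO-1 (SE 0.162) and 5.70 in U-937 (SE 0.346), the fatty acid binding protein FABP4 by 8.62 in U-937 (SE 0.295, adjusted p = 1.87e-17) and the nuclear receptor gene PPARD by 2.33 in SKNO-1 (SE 0.302). FABP5 fell by 0.97 in SKNO-1 (SE 0.0914) and rose by 1.93 in U-937 (SE 0.106). CPT1A, of fatty acid oxidation, fell in both lines, by 0.58 (SE 0.0613) in SKNO-1 and 0.65 (SE 0.0949) in U-937.

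Haem and iron genes, which include steps downstream of CD163, held 5 that rose and 1 that fell of 10 tested in SKNO-1, against 8 and 2 of 11 in U-937. The haptoglobin gene HP rose by 7.23 (SE 0.323, adjusted p = 3.45e-14) in U-937. Haem oxygenase HMOX1 rose by 3.21 (SE 0.178) in U-937 and 1.20 (SE 0.286) in SKNO-1. Biliverdin reductase BLVRB rose by 2.42 (SE 0.236) in SKNO-1 and 0.86 (SE 0.116) in U-937. The haem transporter SLC48A1 rose by 1.62 (SE 0.113) in SKNO-1. The transferrin receptor gene TFRC fell by 1.27 in SKNO-1 (SE 0.0523) and 1.21 in U-937 (SE 0.119), and the iron exporter SLC40A1 by 0.33 in U-937 (SE 0.130, adjusted p = 0.0275). The next list held proteases tied to the shedding of surface proteins, with their regulators. Of its genes, 3 rose and 3 fell of 7 tested in SKNO-1, against 5 and 0 of 7 in U-937. ADAM17, which cleaves MERTK, rose by 1.37 in U-937 (SE 0.0989), its partner RHBDF2 by 1.42 (SE 0.231) in SKNO-1 and 2.09 (SE 0.164) in U-937, and MMP14 by 1.56 in SKNO-1 (SE 0.140). ADAM10 and TIMP1 fell by 0.60 (SE 0.0881) and 0.50 (SE 0.160) in SKNO-1 and rose by 0.47 (SE 0.104) and 1.36 (SE 0.108) in U-937. Among myeloid transcription factors 5 of 10 rose and 1 fell in SKNO-1, and 10 of 13 rose and 3 fell in U-937. CEBPB and CEBPA rose by 2.06 (SE 0.137) and 1.58 (SE 0.162) in SKNO-1, and CEBPE by 3.23 (SE 0.162) in U-937, where CEBPA fell by 0.36 (SE 0.104). EGR1 fell by 2.38 (SE 0.212) in SKNO-1 and 0.88 (SE 0.305) in U-937, and IRF8 by 0.71 in U-937 (SE 0.101). Of the genes named from these lists, LRP1 and CLEC7A as given above, PPARD in SKNO-1, and ABCA1, FABP4 and HP in U-937 were below the low-count filter with DMSO. The tested genes below it in SKNO-1 and U-937 were 1 and 2 for efferocytosis and 0 and 0 for engulfment. They were 1 and 1 for haem and iron, 0 and 1 for the proteases, and 1 and 1 for the myeloid factors. The counts of rises in lists with such genes are in part set by the filter. Each rise and fall given for a gene of the 7 lists passed edgeR's test at an adjusted p under 0.05, beside the 46.7% and 65.3% of all genes called with both agents.

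**Figure D5:**
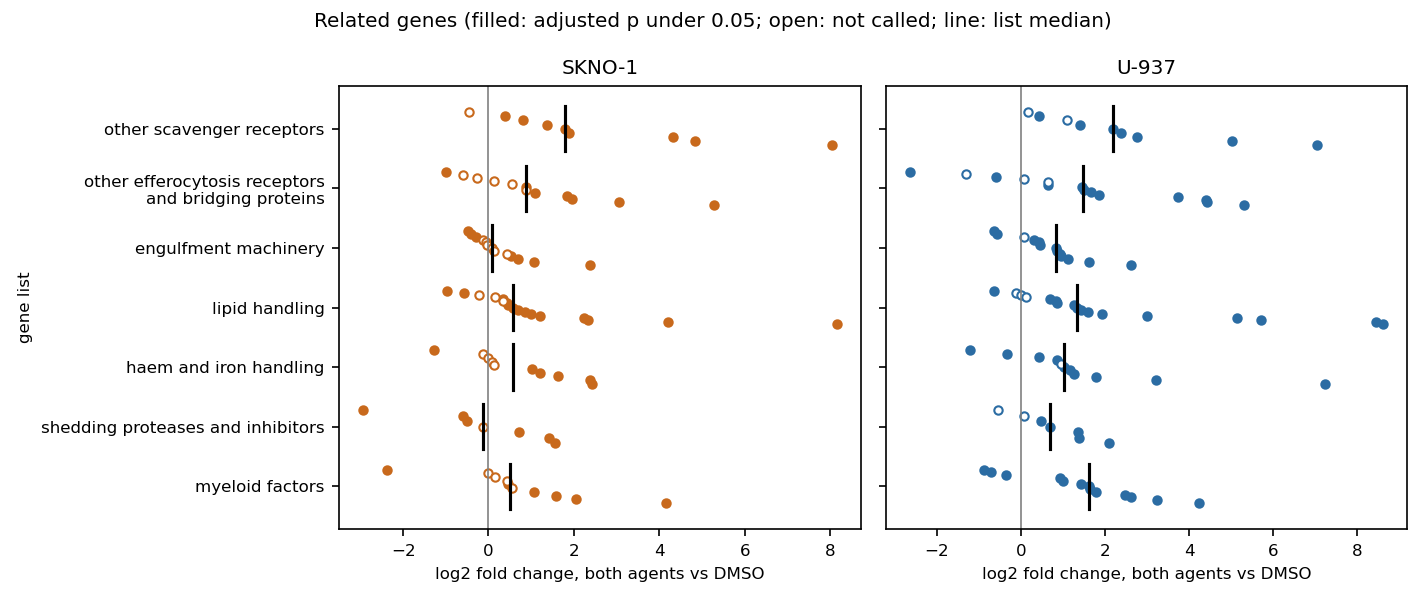
Log2 fold change with both agents against DMSO (x axis) of the tested genes of 7 related lists (y axis) in SKNO-1 and U-937. Filled points passed the test, open points did not, and black lines are list medians. The other scavenger receptors have medians of 1.79 (SKNO-1) and 2.19 (U-937), beside 0.05 and 0.03 for all genes tested. These list medians are in part set by the low-count filter.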

How the data were processed

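RNA of 16 libraries was analysed. Per the submitters' processing notes, the tools included Trimmomatic, STAR, RSEM and DESeq2 with the build hg38; versions and the use of strand are not given in the sources used here. Gene-level estimated counts (RSEM) were deposited by the authors as 1 table and as single files that also hold TPM and gene lengths, and the largest difference between table and files was 0. Of the positive estimated counts 20.4% were not whole, because reads that fit several genes are divided. The authors' deposited tables of log2 fold changes and adjusted p-values were not used for the results. The count table had 0 spike-in entries, so RNA per cell was not measured.

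Counts were rounded and tested with edgeR 4.0.16 in R 4.3.3 (filterByExpr, TMM, robust quasi-likelihood fit), on the 8 libraries of SKNO-1 (17479 genes), the 8 of U-937 (17717) and, between lines, all 16 (19872). Fold changes against a group at 0 counts are bounds against 3 counts over the group, and 95% intervals of low-count ratios are exact and cover counting error only. Alternatives included DESeq2 1.42.0, other scalings, no filter, a GC trend removed by loess, and leaving out each library. The members and lists were chosen with earlier results of these data known. Named were all 9 members; from each related list, in each line, the 2 called genes with the largest change in each direction with both agents and at least 1 CPM; and the 2 genes nearest to each member in pattern with at least 5 CPM. Some genes that this rule names are not reported here.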

Additional observations from a re-analysis of the deposited data

Results flagged for a closer look

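Responses of single receptors differed between SKNO-1 and U-937 by a test of the difference itself (edgeR's quasi-likelihood test, log2 scale, U-937 minus SKNO-1). For ATRA these were SCARB1 (-0.73), CD68 (1.71) and MERTK (0.94). For Corin they were SCARB1 (0.55), CD68 (-1.33) and MERTK (-0.50), of which SCARB1 and MERTK lost their calls without single libraries: SCARB1 without SKNO-1 Corin replicate 1 (adjusted p = 0.0791), SKNO-1 Corin replicate 2 (0.0538), U-937 DMSO replicate 2 (0.0833) or U-937 Corin replicate 2 (0.0679), and MERTK without SKNO-1 DMSO replicate 2 (0.0527), SKNO-1 Corin replicate 1 (0.143), SKNO-1 Corin replicate 2 (0.0563), U-937 DMSO replicate 2 (0.119) or U-937 Corin replicate 1 (0.102). For both agents they were CD36 (7.98), SCARB1 (-1.03), CD163 (7.18) and MERTK (0.86). The CD36 value rests on 2 counts in SKNO-1 DMSO replicate 1 and lost its call without that library (4.86, adjusted p = 0.999956), and the CD36 and CD163 values depend on the prior count because groups were at 0. The lines also differed in medium, which cannot be told apart from the line.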

How the results depend on the processing

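Of 104 tested results of single members, 61 were called; 46 of these kept their call under every alternative run and 15 lost it under at least 1. Of the 43 not called, 12 were called under at least 1, and 0 reversed. Reversed means a change of sign where at least 1 of the 2 fits called the result. The sign of results called in neither fit could change, as for SCARB1 with ATRA in SKNO-1 (-0.05 to 0.16 over the alternatives). With only the groups compared in the fit, the members called in SKNO-1 were 0 for ATRA and 5 for both agents against Corin. Departures from additivity in SKNO-1 numbered 1 with all 16 libraries in 1 fit, 2 with no low-count filter, 2 with the GC trend removed and 2 with a replicate block and the GC trend removed. Leaving out 1 library gave 3 to 5 members called for Corin, 2 to 4 for both agents, 1 in each case for both agents against Corin and 0 to 2 for additivity in SKNO-1, and 1 to 3 for the Corin response between lines; a group left with 1 library is assumed to vary like the others.

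Whether the replicate numbers pair the samples was not settled. The log2 differences between the 2 replicates of a group correlated between groups of a line at -0.49 to 0.42. In some groups these differences followed GC content (r = 0.81 in SKNO-1 DMSO, -0.52 in SKNO-1 ATRA), so the correlations cannot decide it. With a replicate block the members called were 2, 5 and 2 in SKNO-1 and 5, 3 and 6 in U-937 for ATRA, Corin and both agents, as without it; SCARB1 for both agents against Corin in SKNO-1 (adjusted p = 0.0683) and STAB1 between the DMSO groups (0.0521) were not called with the block, and CD36 was called for the ATRA response between lines (0.0251).

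All genes called varied more: 239 to 5335 for ATRA in SKNO-1 (1181 as reported), 3626 to 9520 for Corin (6619), 4962 to 10578 for both agents against ATRA (7828), 397 to 7440 against Corin (1822) and 7 to 5648 for additivity (81) in SKNO-1, 1332 to 2567 for Corin in U-937 (2293) and 1524 to 4471 for the Corin response between lines (2538). Too few counts left MSR1 without a test in both lines, CD36, MARCO and OLR1 in SKNO-1, and STAB1 in U-937.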
